A study of Danio rerio with 32 samples.

Results

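The nuclear genes of the mitochondrial respiratory chain and the ATP synthase were followed in livers of zebrafish larvae. They were chosen by gene name: every gene of the count table whose name, in any case, began with nduf and then a, b, c, s or v, with sdha, sdhb, sdhc or sdhd, with uqcr, with cox4 to cox8, with cycs, or with atp5. The rule found 110 nuclear genes among 32519. It took in 42 genes of complex I and 8 of its assembly factors, 5 genes of complex II and 4 of its assembly factors, 8 genes of complex III, 2 of cytochrome c, 21 of complex IV, 18 of the ATP synthase and 2 of its inhibitor. The 13 mitochondrially encoded genes of the same complexes, named MT-ND, MT-CO, MT-ATP and MT-CYB, are given apart. After the filter on low counts, 102 nuclear and all 13 mitochondrial genes were tested, beside 11384 genes in all.

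RNA was sequenced from livers of nrf2 knockout (KO) and wild-type (WT) larvae given acetaminophen (APAP, also called paracetamol) or the solvent dimethyl sulfoxide (DMSO). The 8 groups were KO APAP, KO DMSO, WT APAP and WT DMSO at 24 h, and the same 4 groups at 12 h. Each group had 4 libraries, and each library came from 20 pooled livers. The labels give neither the APAP dose nor the age of the larvae, do not name the Nrf2 copy that was mutated, and do not say whether KO and WT larvae shared parents, so genotype and family cannot be told apart. They do not say how the 4 pools of a group were separated, so the p-values measure the spread between these libraries. APAP is a painkiller that becomes toxic to the liver at high dose, when part of it is turned into a reactive product. Nrf2 activates genes of the defence against oxidants and of detoxification.

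The respiratory chain passes electrons to oxygen in the inner mitochondrial membrane. Complex I takes them from NADH and complex II from succinate, ubiquinone carries them to complex III, cytochrome c carries them to complex IV, and the proton gradient built on the way drives the ATP synthase. Complexes I, III, IV and the ATP synthase are built from subunits encoded in the nucleus and in mitochondrial DNA, while all subunits of complex II are nuclear. Several subunits of complex IV exist as alternative copies that differ between tissues in mammals. Hepatocytes are rich in mitochondria, and in mammals the reactive product of APAP binds mitochondrial proteins.

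Values are CPM, the counts of a gene relative to the scaled library size, and differences are log2 fold changes ± standard error (SE) from 1 edgeR model of all 32 libraries with n = 4 per group. A gene was called when its adjusted p, by edgeR's quasi-likelihood test with Benjamini-Hochberg adjustment over the 11384 tested genes, was under 0.05. Lengths of genes were not used here, so CPM is compared between groups and not between genes. Total counts ran from 3971569 to 6298523 per library. KO APAP 12 h replicate 2 detected 4129 genes, WT DMSO 12 h replicate 2 detected 8815 and KO DMSO 12 h replicate 3 detected 9703, against a median of 12096. The main counts are also given without these 3 libraries. For most called genes named in comparisons that hold KO APAP 12 h, values are also given without its replicate 2. NFE2L2, an Nrf2 gene, was not called between genotypes: its mean level was 34.4, 41.98, 30.6 and 40.4 CPM in KO APAP 24 h, KO DMSO 24 h, KO APAP 12 h and KO DMSO 12 h, against 54.2, 48.9, 50.5 and 38.7 CPM in the matching WT groups. RNA level checks no label where a mutation leaves the transcript in place.

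Nuclear respiratory chain and ATP synthase genes stood higher in KO than in WT livers under both treatments and at both times. Over the 4 pairs of treatment and time together, 58 of the 102 tested nuclear genes were called higher in KO and 5 lower, where 4.36% of all tested genes were called higher and 4.76% lower. Their median log2 difference, KO over WT, was 0.54, while that of all tested genes was -0.13. Neither background was matched for level: 84 of the 102 were at a mean log2 CPM of 5 or more, against 1647 of the 11384 tested genes. The largest call counts were in the ATP synthase, with 16 of 18 genes higher and 1 lower (median 0.69), and in complex I, with 24 of 37 tested genes higher and 1 lower (median 0.54). Complex III had 5 of 8 higher (median 0.55), complex II 2 of 4 (median 0.48), and complex IV 8 of 20 higher and 2 lower (median 0.53). The gene cycsb, for the electron carrier cytochrome c, and both genes of the ATP synthase inhibitor were also higher. None of the 8 complex I assembly factors was called (median 0.40), and of the 4 complex II assembly factors 1 was called, sdhaf1, which was lower by -1.08 ± 0.31 (edgeR adjusted p = 0.0173) and was picked out after its value was seen.

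Under the 7 other settings tried, between 45 and 67 genes were higher and 5 lower. The background of all tested genes under those settings is not given here. The count was 67 higher and 5 lower without the 3 libraries that detected few genes, and 55 to 73 genes in all were called when 1 library was left out. This comparison, the mean over 4 pairs, was chosen after the data were examined. The single pairs, which share no library, gave medians of 0.51 under APAP at 24 h, 0.55 under DMSO at 24 h, 0.55 under APAP at 12 h and 0.48 under DMSO at 12 h. Of the 102 genes, 88, 87, 91 and 87 were positive in those pairs in the same order, where 45.1%, 47.6%, 38.6% and 47.2% of all tested genes were. The 38.6% belongs to the pair that holds KO APAP 12 h replicate 2, which detected 4129 genes, and the part of that library in it was not tested. In 73 of the 102 (71.6%) the difference was positive in all 4 pairs, against 10.8% of all tested genes, and in 5 it was negative in all 4, against 17.7%. Abundant genes do this more often: among the 1647 tested genes at a mean log2 CPM of 5 or more, the share was 26.8%, and among the 84 nuclear genes at that level 68 were positive in all pairs (81%).

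**Figure D1:**
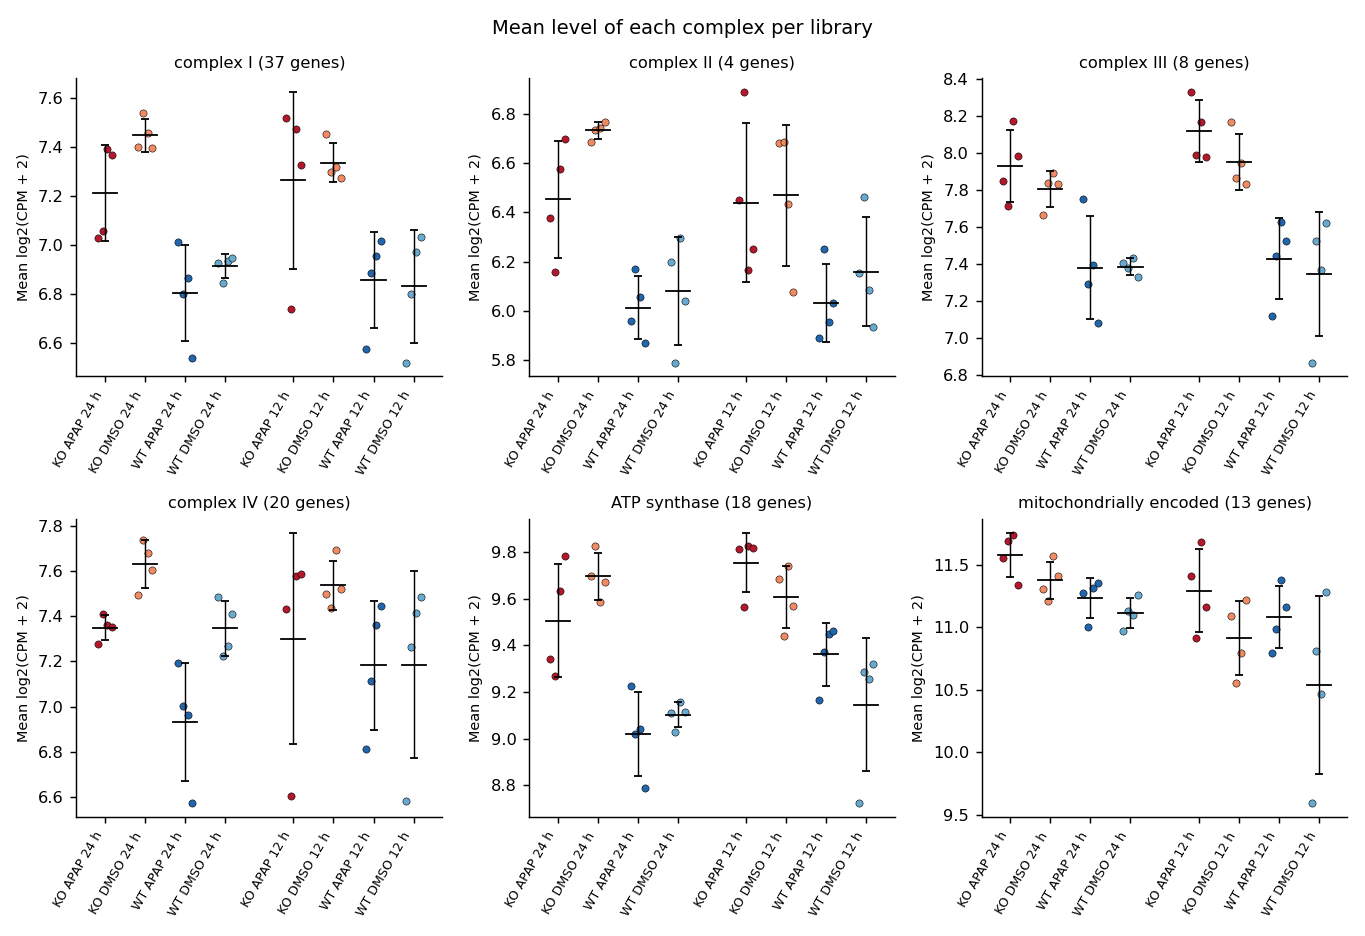
Mean log2(CPM + 2) of the genes of each complex in each library, 1 panel per complex and 1 for the mitochondrially encoded genes, with groups along the horizontal axis, 1 point per library and bars for the mean ± SD of 4 libraries. Over all 102 tested nuclear genes the group means were 7.22, 7.41, 7.25 and 7.31 in KO APAP 24 h, KO DMSO 24 h, KO APAP 12 h and KO DMSO 12 h, against 6.79, 6.95, 6.90 and 6.87 in the matching WT groups.

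The summed level of the nuclear genes shows the same without a model. At 24 h it was 38304 to 56198 CPM in KO APAP livers, against 26345 to 32899 in WT APAP livers. Under DMSO at 24 h it was 46108 to 51991 CPM in KO, against 28657 to 31270 in WT. At 12 h the KO APAP libraries held 48717 to 52814 CPM, against 27934 to 36900 in WT APAP. The KO DMSO libraries at 12 h held 37168 to 46724 CPM, against 20500 to 34242 in WT DMSO. In none of the 4 pairs did the ranges of the genotypes overlap. In bulk RNA, more cells of a type and more RNA per cell cannot be told apart.

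Markers of the cells in the dissected tissue were read from lists. In the comparison over 4 pairs, 1 of 20 tested hepatocyte markers was called higher in KO and 2 lower, with a median of 0.13. Of 17 skeletal muscle markers and 7 cardiac muscle markers none was called, with medians of -0.26 and -0.41. Of 20 exocrine pancreas markers 2 were called lower (median -0.03), and of 8 red blood cell markers 1 was (median -0.02). Summed hepatocyte markers under DMSO at 24 h were 118191 to 151348 CPM in KO, against 87544 to 140417 CPM in WT, so their ranges overlapped. Some rarer marker sums were apart between genotypes under 1 of the 2 treatments at 24 h. Summed biliary markers under DMSO at 24 h were 1330 to 1754 CPM in KO, against 1791 to 2520 CPM in WT, and summed neutrophil markers 3.56 to 5.21 CPM in KO, against 6.32 to 14.99 CPM in WT. Summed macrophage markers, 4 of whose 21 genes were at 0 in every library, were 62.6 to 188 CPM in KO APAP at 24 h, against 25.4 to 36.9 CPM in WT APAP. These ranges did not overlap between genotypes, while those of intestine, endothelium and stellate or mesenchymal markers did under both treatments at 24 h. Under the other treatment at 24 h the biliary, neutrophil and macrophage markers overlapped between genotypes. The highest macrophage sum came from 1 library. KO APAP 24 h replicate 1 held 0.0185% of its counts in these markers, against 0.00516% to 0.00635% in the other replicates.

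The share of reads in no annotated gene was also lower on average in KO. It averaged 4.15%, 3.97%, 4.86% and 5.65% in KO APAP 24 h, KO DMSO 24 h, KO APAP 12 h and KO DMSO 12 h, against 5.31%, 4.97%, 6.14% and 6.45% in the matching WT groups. In the DMSO pair at 24 h it was 3.67% to 4.31% in KO, against 4.60% to 5.45% in WT, without overlap. The genotypes overlapped in the other pairs. Under APAP it was 3.60% to 4.89% in KO, against 4.52% to 7.03% in WT, at 24 h. At 12 h under APAP it was 4.03% to 5.44%, against 4.42% to 7.39%. Under DMSO at 12 h it was 4.95% to 6.76%, against 4.42% to 9.64%, the highest in WT replicate 1. The share of reads that did not align averaged 16.0%, 14.8%, 15.4% and 13.1% in the same KO groups, against 16.9%, 17.3%, 15.6% and 16.1% in WT. The part of cell composition and of these read shares in the genotype difference was not tested.

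**Figure D2:**
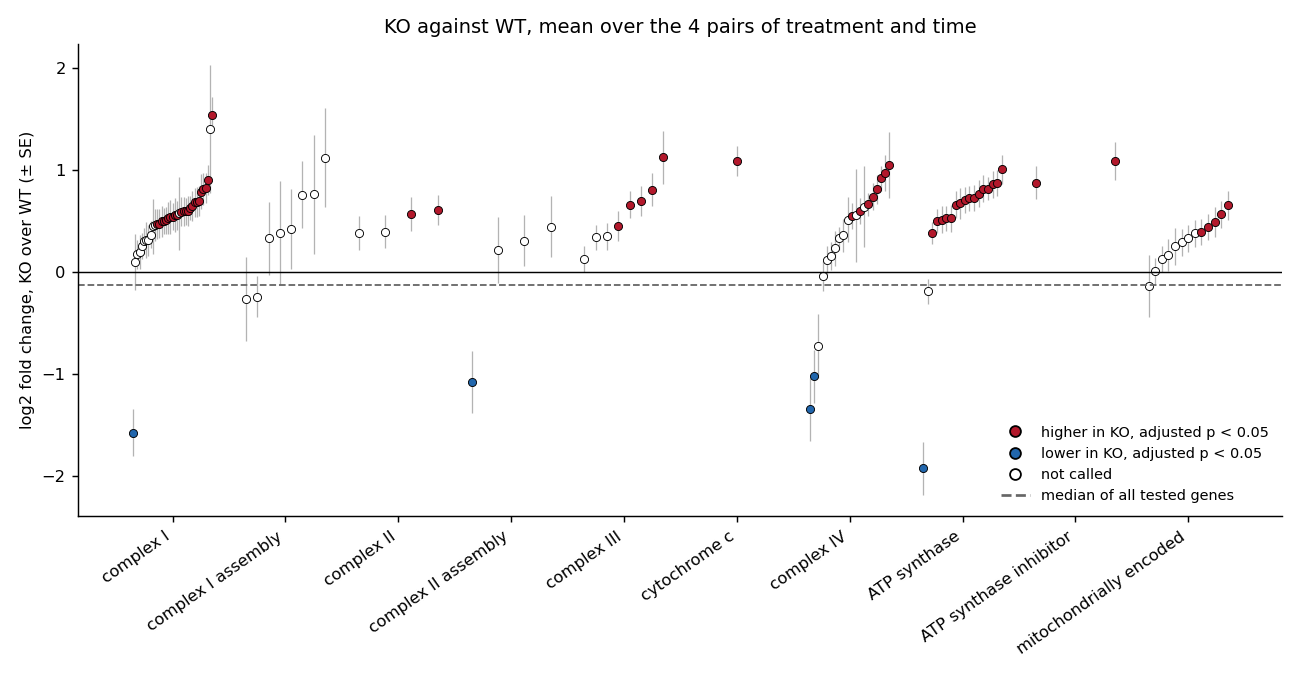
Log2 fold change, KO over WT, averaged over the 4 pairs of treatment and time, with its SE, for each tested gene by complex; red marks genes called higher, blue genes called lower and white genes not called, and the dashed line is the median of all tested genes at -0.13. Most points of every complex lie above that line, and 63 of the 102 nuclear genes are coloured.

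Among the ATP synthase genes, the catalytic beta subunit ATP5F1B was higher in KO by 0.77 ± 0.13 over the 4 pairs (edgeR adjusted p = 6.89e-05). In DMSO livers at 24 h it had 6118, 7243, 4970 and 6091 CPM in KO, against 2475, 2176, 3048 and 2718 CPM in WT. At 12 h under DMSO it had 2433, 2318, 3640 and 3117 CPM in KO, against 2047, 3334, 2371 and 3437 CPM in WT. The genotypes were apart at 24 h and overlapped at 12 h. Under APAP it had 3584, 3715, 7324 and 9187 CPM in KO at 24 h, against 3172, 2736, 2675 and 3390 CPM in WT. KO replicates 3 and 4 of that pair stood far above the other 6 libraries. The alpha subunit ATP5F1A differed by 0.71 ± 0.13 (edgeR adjusted p = 0.000173).

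ATP5MG, which encodes a subunit of the membrane part, was among the 4 genes with the smallest p, at 0.81 ± 0.11 (edgeR adjusted p = 1.73e-06). Under APAP at 24 h it had 2037, 1563, 2048 and 2637 CPM in KO, against 1263, 1089, 1020 and 1062 CPM in WT. With DMSO at that time it had 2462, 2260, 1749 and 2161 CPM in KO, against 1168, 922, 1285 and 1147 CPM in WT. Every KO library stood above every WT library in these pairs, and at 12 h as well. The c-ring, which turns as protons pass, has 3 genes in the set: atp5mc1 differed by 0.72 ± 0.12, ATP5MC3 by 0.52 ± 0.13 and atp5mc3b by 0.38 ± 0.11, all called. These copies encode near-identical mature proteins, and reads that fit more than 1 place were left out of the counts, so the split between copies is uncertain.

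The inhibitor protein of the ATP synthase, which blocks ATP breakdown when the gradient falls, has the copies atp5if1a and atp5if1b. The copy atp5if1a differed by 0.87 ± 0.16 and atp5if1b by 1.09 ± 0.18, both called in KO over WT (edgeR adjusted p = 0.000236 and 6.31e-05). At 24 h under APAP, atp5if1a had 90.6, 118, 136 and 172 CPM in KO, against 70.3, 75.8, 38.3 and 75.1 CPM in WT. No library of one genotype reached the other in any of the 4 pairs for this copy.

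Complex I gave the gene with the smallest p of all members, ndufc1, which encodes a small accessory subunit of the membrane arm. Its difference over the 4 pairs was 1.54 ± 0.17 (edgeR adjusted p = 2.29e-08). Under APAP at 24 h it had 81.9, 92.1, 108 and 104 CPM in KO, against 61.8, 47.4, 66.2 and 21.5 CPM in WT. Under DMSO at 24 h the KO libraries had 172, 151, 180 and 122 CPM, against 68.0, 43.2, 42.9 and 37.8 CPM in WT. KO was above WT without overlap in both pairs. At 12 h ndufc1 had 207, 212, 127 and 90.1 CPM in KO APAP, against 42.1, 72.1, 50.5 and 51.6 CPM in WT APAP. The DMSO groups at 12 h had 290, 207, 138 and 162 CPM in KO, against 36.3, 57.6, 54.4 and 60.02 CPM in WT, again apart.

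Other complex I genes with set roles moved less. NDUFV1, the subunit that takes electrons from NADH, differed by 0.68 ± 0.14 (edgeR adjusted p = 0.00117). NDUFAB1 and ndufab1b, copies of the acyl carrier protein, differed by 0.54 ± 0.13 and 0.56 ± 0.14, both called. NDUFA4, once counted to complex I and in mammals a subunit of complex IV, differed by 0.63 ± 0.12 (edgeR adjusted p = 0.000246), while its copy ndufa4b was not called at 0.57 ± 0.36. The gene listed as NDUFS1, the largest subunit of complex I, had no counts in any library and could not be described. Of complex II, which is also an enzyme of the TCA cycle, the membrane anchors SDHC and SDHD were called at 0.61 ± 0.15 and 0.57 ± 0.17. The catalytic subunits were not called: SDHA differed by 0.40 ± 0.16 and SDHB by 0.38 ± 0.17.

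In complex III, the iron-sulfur subunit UQCRFS1 was called at 0.45 ± 0.15 (edgeR adjusted p = 0.0450), and the core subunit UQCRC1 was not, at 0.35 ± 0.13. In complex IV, COX4I1, the general form of subunit 4, was called at 0.66 ± 0.11 (edgeR adjusted p = 7.56e-05). It had 528, 523, 831 and 885 CPM in KO APAP at 24 h, against 395, 350, 448 and 334 CPM in WT APAP. In the DMSO groups at 24 h it had 661, 726, 642 and 710 CPM in KO, against 481, 452, 493 and 497 CPM in WT. These groups did not overlap, nor did those at 12 h. COX4I2, in mammals the lung form of that subunit, was low, at 0 to 7.87 CPM over all 32 libraries, and was not called.

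The small complex IV subunit cox7b had the second smallest p, at 0.92 ± 0.12 (edgeR adjusted p = 9.49e-07). At 24 h it had 977, 1118, 1112 and 987 CPM in KO APAP, against 637, 545, 737 and 374 CPM in WT APAP. With DMSO at 24 h it had 1065, 1148, 1144 and 1063 CPM in KO, against 668, 613, 586 and 496 CPM in WT. All 8 KO libraries lay above all 8 WT libraries at this time. At 12 h the KO APAP libraries had 1880, 1445, 1472 and 1157 CPM, against 777, 944, 861 and 788 CPM in WT APAP. The KO DMSO libraries at 12 h had 1952, 1281, 1257 and 1402 CPM, against 417, 759, 788 and 841 CPM in WT DMSO. In all, 14 of the 102 nuclear genes (13.7%) had every KO library above every WT library in all 4 pairs, against 25 of the 11384 tested genes (0.22%), and against 1.46% of those at a mean log2 CPM of 5 or more. Beside ndufc1, cox7b, COX4I1, ATP5MG and atp5if1a these were ATP5F1C, ATP5PF, ATP5PO, atp5meb, atp5mf, NDUFA12, NDUFAB1, NDUFB10 and uqcrc2a.

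A few genes ran against the rest of their complex. The ATP synthase gene atp5mea, a copy of the e subunit that helps pair the enzyme in the membrane, was lower in KO by -1.93 ± 0.26 (edgeR adjusted p = 1.26e-06), while its copy atp5meb was higher by 0.73 ± 0.13 (edgeR adjusted p = 8.28e-05). Under APAP at 24 h atp5mea had 32.9, 40.04, 24.1 and 25.7 CPM in KO, against 170, 121, 183 and 136 CPM in WT. In the same libraries atp5meb had 375, 373, 516 and 424 CPM in KO, against 290, 238, 350 and 251 CPM in WT. Both copies were apart between genotypes, in opposite directions. Under DMSO at 24 h atp5mea had 59.21, 120, 101 and 43.5 CPM in KO, against 242, 218, 224 and 188 CPM in WT. At 12 h it had 50.7, 0.488, 45.9 and 99.6 CPM in KO APAP, against 211, 208, 277 and 257 CPM in WT APAP. The 0.488 CPM came from the library that detected 4129 genes; without it the difference at 12 h under APAP was -1.85 (edgeR adjusted p = 0.000948). The KO DMSO libraries at 12 h had 59.9, 70.2, 48.8 and 97.5 CPM, against 170, 227, 224 and 277 CPM in WT DMSO.

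NDUFB2, an accessory subunit of complex I, was lower in KO by -1.58 ± 0.23 (edgeR adjusted p = 3.98e-06). It had 57.4, 63.7, 38.8 and 38.3 CPM in KO APAP at 24 h, against 198, 185, 162 and 191 CPM in WT APAP. At 24 h under DMSO it had 169, 118, 134 and 79.6 CPM in KO, against 247, 258, 215 and 372 CPM in WT. Together with atp5mea, NDUFB2 was 1 of 2 members whose KO libraries lay below all WT libraries in each of the 4 pairs. The share of all tested genes that did so is not given here. Without regard to overlap, 4.9% of the nuclear genes and 17.7% of all tested genes were lower in all 4 pairs. Under APAP at 12 h NDUFB2 had 67.4, 4.88, 109 and 34.3 CPM in KO, against 167, 192, 194 and 215 CPM in WT, with a difference of -1.44 (edgeR adjusted p = 0.0325) when the library that detected 4129 genes was left out. The KO DMSO libraries at 12 h had 61.5, 41.4, 106 and 163 CPM, against 181, 232, 242 and 372 CPM in WT DMSO.

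Complex IV had the other exceptions. COX5B is listed 3 times, and its copies moved in opposite directions: ENSDARG00000068738 was lower in KO by -1.35 ± 0.31 (edgeR adjusted p = 0.00294), and ENSDARG00000015978 was higher by 0.74 ± 0.13 (edgeR adjusted p = 0.000181). At 24 h under APAP the first had 11.4, 10.503, 17.4 and 11.6 CPM in KO, against 19.7, 25.2, 21.1 and 34.6 CPM in WT. The second had 1641, 1676, 2524 and 3192 CPM in KO, against 1072, 986, 767 and 1026 CPM in WT, so the copy that was lower held few of the reads. The gene cox8b, in mammals the heart and muscle form of subunit 8, was lower in KO by -1.03 ± 0.26 (edgeR adjusted p = 0.00733), and cox8a, the general form, was not called at 0.51 ± 0.22. The cox8b groups overlapped under neither treatment at 24 h: it had 39.8, 68.7, 67.5 and 47.5 CPM in KO APAP, against 162, 212, 88.0 and 136 CPM in WT APAP, and 57.7, 76.5, 89.5 and 67.6 CPM in KO DMSO, against 134, 135, 126 and 224 CPM in WT DMSO. Of the tissue forms that mammals use in muscle, cox7a1 did not differ between genotypes beyond its error averaged over pairs (-0.04 ± 0.15). Its pairs ran in both directions. Under APAP at 24 h every KO library lay below every WT library, with a difference of -0.65 ± 0.31 that was not called. The other pairs overlapped and were positive, from 0.04 under DMSO at 24 h to 0.38 under DMSO at 12 h.

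**Figure D3:**
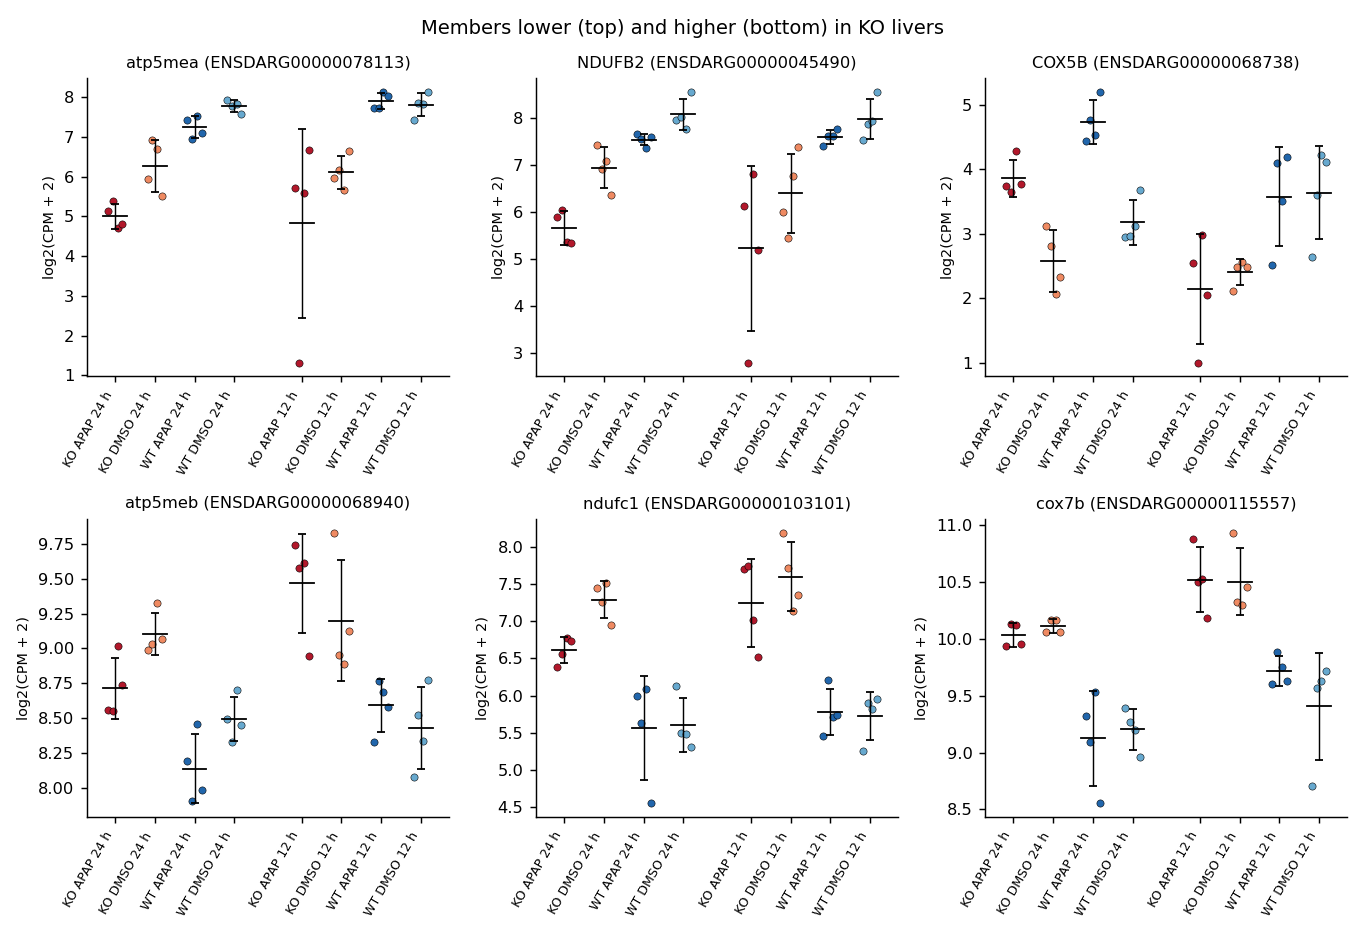
Log2(CPM + 2) of 6 genes in each library, 1 point per library with the mean ± SD of 4, groups along the horizontal axis. The upper panels show atp5mea, NDUFB2 and the COX5B copy ENSDARG00000068738, which were lower in KO over the 4 pairs by -1.93, -1.58 and -1.35, and the lower panels show atp5meb, ndufc1 and cox7b, which were higher by 0.73, 1.54 and 0.92.

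Read pair by pair, the genotype comparisons called fewer genes. Under APAP at 24 h, 8 nuclear genes were higher in KO and 2 lower, where 0.571% of all tested genes were higher and 0.624% lower. The 4 higher genes with the smallest p were ATP5F1C, the central stalk subunit of the ATP synthase (1.28, edgeR adjusted p = 0.00376), ATP5F1D, of the same stalk (1.2, adjusted p = 0.00574), COX5B ENSDARG00000015978 (1.23, adjusted p = 0.00892) and COX5A (1.42), and the lower ones were atp5mea (-2.31) and NDUFB2 (-1.89). This count rested on single libraries: it was 2 in all without KO APAP 24 h replicate 4, 3 without KO replicate 3, 4 without WT replicate 4 and 5 without WT replicate 2, and it was 17 higher and 4 lower without the 3 libraries that detected few genes. Under DMSO at 24 h, 4 were higher and none lower (0.132% of all tested genes were higher and 0.149% lower), namely ndufc1, atp5mc1, ATP5F1B and ATP5F1D, and none was left without WT DMSO 24 h replicate 2. It was 1 without KO replicate 1 or 2 or WT replicate 1 or 3, and 2 without WT replicate 4. Fitted to its own 8 libraries alone, this pair gave 32 higher and 4 lower, and without the 3 libraries that detected few genes 14 higher and 1 lower. The shares of all tested genes called under these other settings are not given here, so the percentages above are no background for those counts. Counting only whether groups overlapped, 54 of the 102 had every KO library above every WT library under DMSO at 24 h (5.62% of all tested genes) and 36 under APAP (5.31%), while 4 (4.77%) and 6 (5.48%) had every KO library below. Among genes at a mean log2 CPM of 5 or more the shares above were 61.9% of the nuclear genes and 17.1% of all genes under DMSO, and 41.7% and 14.5% under APAP.

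At 12 h under APAP, 8 were higher and 2 lower, against a background of 1.28% higher and 0.949% lower. Those with the smallest p were cycsb (1.64 ± 0.30, edgeR adjusted p = 0.00158), the complex III hinge subunit UQCRH (1.41), ndufc1 (1.56) and the complex III core subunit UQCRC2 (1.42), with atp5mea (-2.27) and NDUFB2 (-1.83) lower. Without the library that detected 4129 genes the count was again 8 higher and 2 lower, with cycsb at 1.52, UQCRH at 1.04, ndufc1 at 1.40 and UQCRC2 at 1.07, all called. The count was 6 in all without WT APAP 12 h replicate 1 or 2 and 5 without replicate 3. A fit to the compared libraries alone gave 1 higher and none lower, and limma voom 14 higher and 2 lower, without a background of all tested genes for either setting. Under DMSO at 12 h, ndufc1 (1.94, edgeR adjusted p = 0.0024) and cox7b (1.07, adjusted p = 0.034) were higher and none was lower (0.141% of all tested genes were higher and 0.105% lower), and 1 was left without any of KO replicates 1, 2 and 4 or WT replicates 1, 2 and 3. Genes without overlap and higher in KO numbered 34 under APAP at 12 h (2.83% of all tested genes) and 29 under DMSO (3.04%), and those lower 2 (5.46%) and 3 (2.78%). At a mean log2 CPM of 5 or more the shares above were 40.5% of the nuclear genes and 12% of all genes under APAP, and 33.3% and 6.98% under DMSO. All tested genes had a median of -0.30 in the APAP pair at 12 h, and another scaling (relative log expression) put it 0.145 lower still, which leaves the nuclear members at a median of 0.39.

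Few of the nuclear genes were called with APAP. In KO at 24 h, 1 nuclear gene rose and 2 fell, where 2.05% of all tested genes rose and 3% fell, and in WT at 24 h again 1 rose and 2 fell (1.64% and 1.55% of all tested genes). At 12 h 1 rose and 1 fell in KO (3.09% and 2.13%), and none rose and 1 fell in WT (1.35% and 0.448%). In KO at 24 h a fit to the compared libraries alone gave 2 higher and 12 lower, and in KO at 12 h DESeq2 gave 1 higher and 3 lower. No share of all tested genes is given for these 2 settings. The shares in the 32-library fit are near or under those of all genes. Medians over the 102 genes were -0.10 in KO and -0.09 in WT at 24 h, where those of all tested genes were -0.004 and 0.02. At 12 h they were 0.10 in KO and 0.09 in WT, where those of all tested genes were -0.30 and -0.07. The -0.30 belongs to the comparison that holds the library that detected 4129 genes, and the part of that library in it was not tested. Both member medians turned negative, -0.10 and -0.02, with scaling by relative log expression. That scaling shifted the median of all genes by -0.201 and -0.107. Comparisons of APAP with DMSO share their libraries with the genotype comparisons above.

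The gene that changed most was cox7a1, in mammals the heart and muscle form of a small complex IV subunit. At 24 h it had 6.76, 12.3, 12.5 and 8.50 CPM in KO APAP livers, against 181, 197, 271 and 230 CPM in KO DMSO livers. In WT at 24 h it had 18.9, 13.4, 15.1 and 15.4 CPM with APAP, against 237, 214, 204 and 200 CPM with DMSO. Every APAP library lay far below every DMSO library. The log2 difference was -4.45 ± 0.35 in KO (edgeR adjusted p = 8.21e-12) and -3.76 ± 0.34 in WT (edgeR adjusted p = 1.83e-10). At 12 h it had 55.1, 51.7, 60.3 and 58.7 CPM in KO APAP, against 171, 104, 194 and 150 CPM in KO DMSO, a log2 difference of -1.45 ± 0.30 (edgeR adjusted p = 0.002), or -1.43 without the library that detected 4129 genes (edgeR adjusted p = 0.00163). In WT at 12 h it had 40.2, 53.9, 73.4 and 48.8 CPM with APAP, against 80.8, 76.8, 154 and 163 CPM with DMSO, with -1.13 ± 0.30 (edgeR adjusted p = 0.0355). The groups were apart in these pairs too, but the WT call at 12 h was lost without WT APAP 12 h replicate 1, 2 or 4 or WT DMSO 12 h replicate 3 or 4.

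The fall of cox7a1 was larger at 24 h than at 12 h in both genotypes. The APAP response at 24 h minus that at 12 h was -3.0 in KO (edgeR adjusted p = 0.000144) and -2.63 in WT (edgeR adjusted p = 0.00127), a comparison chosen after the data were examined. It was the 1 nuclear gene called there in each genotype, where 0.149% of all tested genes in KO and 0.0878% in WT were called lower, and without KO DMSO 24 h replicate 2 the KO count was 2. Levels under APAP at 24 h were below those at 12 h, by -2.49 ± 0.32 in KO (edgeR adjusted p = 1.74e-05) and -1.78 ± 0.31 in WT (edgeR adjusted p = 0.00889). In DMSO livers cox7a1 stood higher at 24 h than at 12 h, by 0.51 ± 0.30 in KO and 0.85 ± 0.30 in WT, neither called. Its related subunits did not pass the test under APAP: COX7A2 ENSDARG00000053217, the general form, had 405, 267, 280 and 362 CPM in KO APAP at 24 h, against 349, 300, 207 and 219 CPM in KO DMSO. COX7A2L, a related protein that joins complexes III and IV in mammals, had 96.0, 89.3, 69.9 and 58.8 CPM in KO APAP at 24 h, against 85.7, 75.9, 103 and 88.9 CPM in KO DMSO. Both overlapped between treatments.

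The 5 genes whose group means, on the log2 scale, followed cox7a1 most closely over the 8 groups were serpinf2a (Pearson r = 0.9954), ITGB1 (0.975), sult2st2 (0.9715), GSTZ1 (0.9699) and CERKL (0.9675). The correlation is a description over 8 points that share their libraries' scaling. That of CERKL rests on values of a few counts: it averaged 0.451 to 2.16 CPM over the groups, with libraries at 0, for example 0.387, 0, 0 and 1.42 CPM in KO APAP at 24 h. GSTZ1, an enzyme of tyrosine breakdown, averaged 42.8 CPM in KO APAP, against 291 CPM in KO DMSO at 24 h, and 63.7 CPM in WT APAP, against 312 CPM in WT DMSO. The plasma protein gene serpinf2a averaged 43.5 CPM in KO APAP, against 360 CPM in KO DMSO at 24 h.

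COX6A1 ENSDARG00000054588, a gene of complex IV subunit 6a, was also lower with APAP than with DMSO at 24 h. It had 5.60, 7.88, 3.38 and 6.14 CPM in KO APAP, against 44.9, 29, 46.5 and 39.7 CPM in KO DMSO, a difference of -2.79 ± 0.66 (edgeR adjusted p = 0.00569). In WT it had 3.61, 1.40, 3.93 and 11.1 CPM with APAP, against 84.9, 42.6, 27.1 and 53.2 CPM with DMSO, a difference of -3.38 ± 0.68 (edgeR adjusted p = 0.00163). No APAP library reached a DMSO library at 24 h. At 12 h its levels were 0.366, 0.488, 3.49 and 11.8 CPM in KO APAP, against 3.36, 7.51, 8.37 and 11.1 CPM in KO DMSO, and the groups overlapped. From 12 h to 24 h it rose with DMSO, by 2.40 ± 0.64 in KO, which was called, and by 1.65 ± 0.62 in WT, which was not. With APAP it moved by 0.50 ± 0.65 in KO and by -1.34 ± 0.64 in WT, neither called. The second gene of this subunit, cox6a1 ENSDARG00000022438, held most of the reads and averaged 1479 ± 112 CPM in KO APAP, against 1479 ± 155 CPM in KO DMSO, and 940 ± 243 CPM in WT APAP, against 867 ± 137 CPM in WT DMSO, at 24 h (SD, n = 4 each).

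The gene that rose was cycsb, 1 of 2 listed for cytochrome c, which carries electrons to complex IV and, once released to the cytosol, takes part in apoptosis. At 24 h it had 315, 297, 449 and 391 CPM in KO APAP, against 178, 177, 157 and 118 CPM in KO DMSO, a rise of 1.2 ± 0.30 (edgeR adjusted p = 0.00884). WT livers at 24 h had 171, 136, 220 and 163 CPM with APAP, against 76.4, 74.3, 113 and 68.6 CPM with DMSO, a rise of 1.05 ± 0.30 (edgeR adjusted p = 0.0384). Treatments were apart in both genotypes, though the WT call was lost when any of 7 of its 8 libraries was left out and the KO call without KO DMSO 24 h replicate 4 (1.09, edgeR adjusted p = 0.0563). At 12 h it had 551, 619, 423 and 346 CPM in KO APAP, against 280, 222, 117 and 151 CPM in KO DMSO, a rise of 1.33 ± 0.30 (edgeR adjusted p = 0.00417). Without the library that detected 4129 genes the rise at 12 h was 1.17 (edgeR adjusted p = 0.0110). In WT at 12 h it had 146, 186, 121 and 167 CPM with APAP, against 111, 177, 81.9 and 103 CPM with DMSO, which overlapped. The second gene, cycsa, had no counts in any library.

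**Figure D4:**
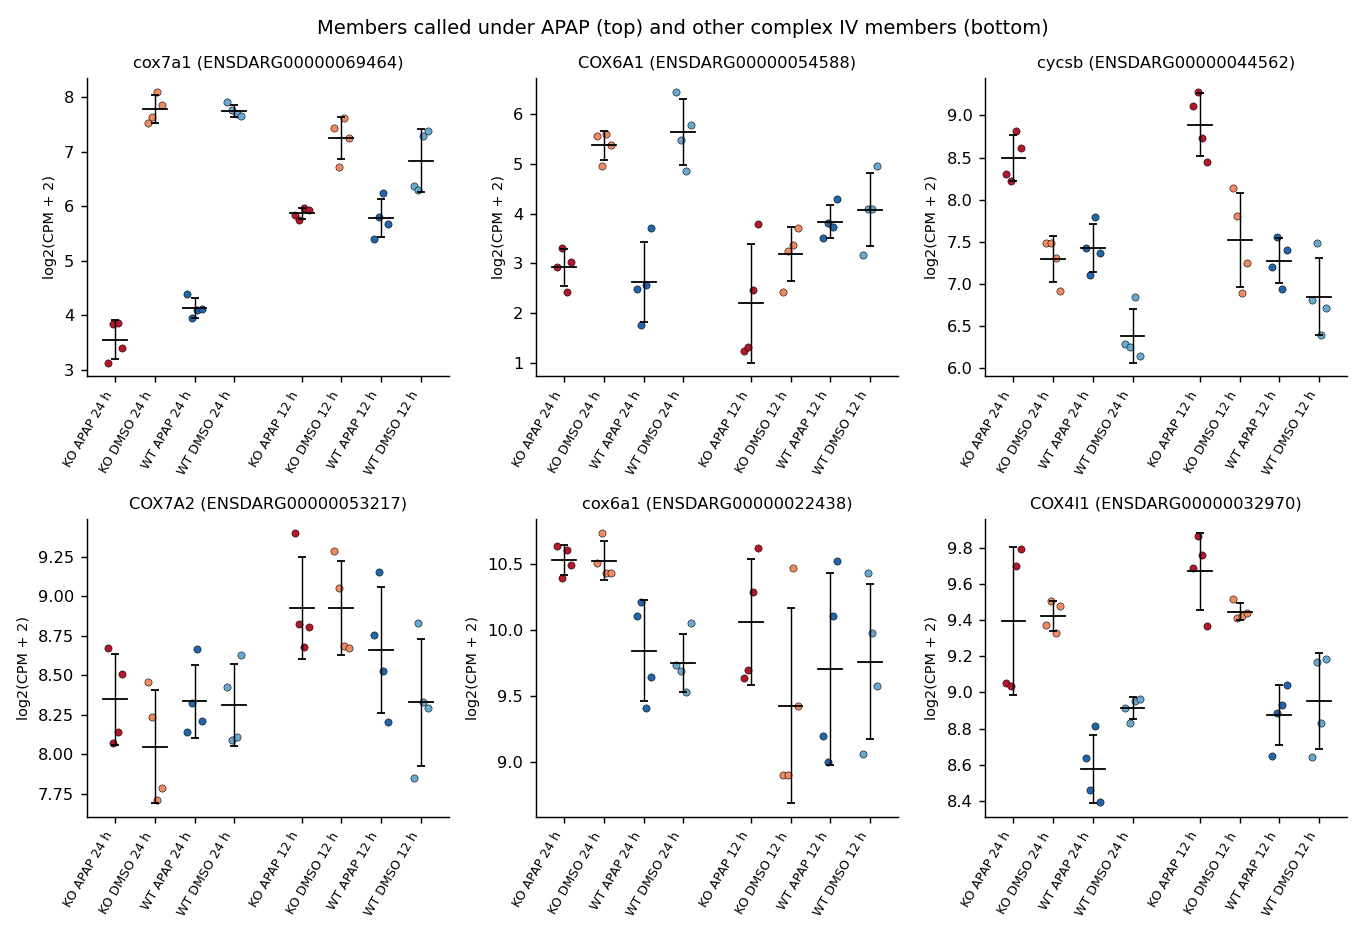
Log2(CPM + 2) of 6 genes in each library, 1 point per library with the mean ± SD of 4, groups along the horizontal axis. The upper panels show cox7a1 and COX6A1 ENSDARG00000054588, which were lower with APAP than with DMSO at 24 h in both genotypes, and cycsb, which was higher. The lower panels show COX7A2 ENSDARG00000053217, cox6a1 ENSDARG00000022438 and COX4I1, which were not called between APAP and DMSO.

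Markers of several cell types were summed under APAP at 24 h, and those of red blood cells were apart in both genotypes. Summed red blood cell markers were 388 to 693 CPM in KO APAP, against 1270 to 2673 CPM in KO DMSO, and 374 to 765 CPM in WT APAP, against 1401 to 3255 CPM in WT DMSO. Summed skeletal muscle markers were 4014 to 7560 CPM in KO APAP, against 3708 to 6308 CPM in KO DMSO, and 5303 to 12296 CPM in WT APAP, against 3567 to 6244 CPM in WT DMSO. Their means ran the other way from cox7a1: 6318 CPM in KO APAP, against 4710 CPM in KO DMSO, and 9908 CPM in WT APAP, against 4469 CPM in WT DMSO. Hepatocyte markers summed to 82556 to 129052 CPM in KO APAP, against 118191 to 151348 CPM in KO DMSO, and 73682 to 122702 CPM in WT APAP, against 87544 to 140417 CPM in WT DMSO. The ranges of skeletal muscle and hepatocyte markers overlapped between treatments in both genotypes. Exocrine pancreas markers summed to 26109 to 46725 CPM in KO APAP, against 56456 to 119473 CPM in KO DMSO, and to 14606 to 146260 CPM in WT APAP, against 43108 to 93270 CPM in WT DMSO. Intestine markers summed to 1369 to 2443 CPM in KO APAP, against 2589 to 3931 CPM in KO DMSO, and biliary markers to 1821 to 2237 CPM in KO APAP, against 1330 to 1754 CPM in KO DMSO. In KO these 3 sums were apart between treatments, while in WT they overlapped. Cardiac muscle markers summed to at most 219 CPM in any library. No marker of the red blood cell, muscle, hepatocyte and pancreas lists was at 0 in every library, and the part of these cells in the changes of cox7a1, COX6A1 and cycsb was not tested.

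By complex, medians under APAP were small. In KO at 24 h they were -0.22 for complex I, -0.17 for complex II, 0.00 for complex III, 0.02 for complex IV and -0.07 for the ATP synthase. In WT at 24 h complex I and complex IV stood at -0.12 each and the ATP synthase at -0.06. Genes whose APAP libraries all lay below the DMSO libraries numbered 17 of 102 in KO at 24 h (9.31% of all tested genes) and 11 in WT (6.7%), and genes above numbered 2 in each (8.2% and 6.43%). At 12 h they numbered 4 below and 5 above in KO (7.82% and 3.91% of all tested genes), and 2 below and 1 above in WT (4.12% and 4.55%).

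No member responded to APAP with a called difference between genotypes. The APAP response in KO minus that in WT was called for 0 of 102 nuclear genes at 24 h and 0 at 12 h by edgeR, where 0.105% and 0.0703% of all tested genes were called. At an unadjusted p under 0.05 there were 0 at 24 h and 3 at 12 h, and DESeq2 and limma voom called none either. For cox7a1, the responses at 24 h were -4.45 ± 0.35 in KO and -3.76 ± 0.34 in WT. In simulated data of this size, for WT APAP against WT DMSO at 24 h, 1 of 100 genes with a 2-fold change was recovered. With a 4-fold change 25 of 100 were. Of the 102 nuclear genes, 84 were at a mean log2 CPM of 5 or more, and the share recovered at that level was not tested. A difference of 2 responses has a larger error than either response: for cox7a1 it was -0.69 ± 0.43 at 24 h (edgeR adjusted p = 1).

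Between 24 h and 12 h the KO DMSO livers changed most, with 5 nuclear genes higher at 24 h and 1 lower, against a background of 1.75% and 0.773%. With scaling by relative log expression, which moved the median of all genes by -0.196, there were 2 higher and 2 lower, and with DESeq2 5 higher and 7 lower. The background holds only for edgeR in the report's scaling. On unscaled counts the nuclear genes took 3.23% to 4.67% of KO DMSO libraries at 24 h, against 4.78% to 5.91% at 12 h. The 4 higher genes with the smallest p were ndufv3, a complex I subunit (1.65), ATP5F1B (1.09), COX6A1 ENSDARG00000054588 (2.40 ± 0.64, edgeR adjusted p = 0.0314) and SDHB, the iron-sulfur subunit of complex II (1.26). The gene ndufv3 had 267, 329, 236 and 246 CPM at 24 h, against 75.9, 74.9, 82.8 and 110 CPM at 12 h. SDHB had 94.3, 87.5, 91.9 and 90.5 CPM at 24 h, against 49.5, 43.6, 31 and 27.6 CPM at 12 h. Both were apart between times. The gene that was lower at 24 h was ndufa4b (-3.41), with 2.60, 20.0, 1.36 and 2.19 CPM at 24 h, against 42.1, 155, 48.8 and 37.1 CPM at 12 h. Replicate 2 stood above the others at both times. In WT DMSO livers ndufa4b was also lower at 24 h, by -2.09 ± 0.74 and without overlap, but was not called. The KO DMSO count fell to 1 in all without KO DMSO 12 h replicate 2, to 2 without KO DMSO 24 h replicate 3 or KO DMSO 12 h replicate 1, and to 3 without each of the other libraries but KO DMSO 12 h replicate 3.

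The other time comparisons called little. In KO APAP and in WT APAP livers cox7a1 alone was called, lower at 24 h (background 0.439% and 0.0527% in either direction), and the WT call was lost without WT APAP 24 h replicate 2, 3 or 4 or WT APAP 12 h replicate 3. In WT DMSO livers none of the 102 was called by edgeR, where edgeR called 2.05% of all tested genes, and 6 were at an unadjusted p under 0.05. DESeq2 called 3 and limma voom 5, and their shares of all tested genes are not given here. Without WT DMSO 24 h replicate 4 or WT DMSO 12 h replicate 4, 1 gene was called. Medians of the ATP synthase genes under APAP, 24 h over 12 h, were -0.36 in KO and -0.41 in WT, and none of the 18 was called in either. All tested genes had medians of 0.21 and 0.01 in these comparisons.

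The mitochondrially encoded genes were compared between genotypes in the same fit. Over the 4 pairs, 5 of 13 were called higher in KO and none lower, against 4.36% and 4.76% of all tested genes: MT-ND1 (0.65 ± 0.14, edgeR adjusted p = 0.00167) and MT-ND2 (0.49 ± 0.15, 0.0264) of complex I, MT-CYB of complex III (0.56 ± 0.13, 0.00352), and MT-CO1 (0.44 ± 0.13, 0.0200) and MT-CO2 (0.39 ± 0.13, 0.0489) of complex IV. The call of MT-CO2 was lost with relative log expression scaling, with DESeq2 and without any of 22 single libraries. In 7 of the 13 the difference was positive in all 4 pairs, against 10.8% of all tested genes and 26.8% of those at a mean log2 CPM of 5 or more, where all 13 lie. At 24 h under APAP MT-ND1 had 3203, 3953, 5027 and 3495 CPM in KO, against 2543, 1909, 3018 and 2384 CPM in WT. With DMSO at 24 h it had 3040, 3207, 3952 and 3598 CPM in KO, against 1635, 2009, 2548 and 2425 CPM in WT. KO lay above WT in both pairs. The 2 ATP synthase genes were not called: MT-ATP6 differed by 0.33 ± 0.13 and mt-atp8 by -0.14 ± 0.30. MT-ND4 (0.38 ± 0.14), MT-ND5 (0.29 ± 0.13), MT-ND6 (0.25 ± 0.18), mt-nd4l (0.16 ± 0.16), MT-CO3 (0.12 ± 0.13) and MT-ND3 (0.00 ± 0.13) were not called either.

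With APAP, 1 mitochondrially encoded gene was called higher in each genotype at 12 h and none was called at 24 h. Of all tested genes, 3.09% in KO and 1.35% in WT were called higher at 12 h, and 2.05% and 1.64% at 24 h. MT-CO1, the catalytic subunit of complex IV, had 4419, 6906, 5227 and 4766 CPM in KO APAP at 12 h, against 2517, 2116, 2680 and 3465 CPM in KO DMSO. It rose by 0.98 ± 0.26 (edgeR adjusted p = 0.0151), and by 0.82 without the library that detected 4129 genes, where it was not called (edgeR adjusted p = 0.102), nor was it without KO DMSO 12 h replicate 1 or 2. The small complex I subunit mt-nd4l had 476, 473, 578 and 362 CPM in WT APAP at 12 h, against 110, 145, 246 and 251 CPM in WT DMSO, a rise of 1.33 ± 0.32 (edgeR adjusted p = 0.014). Groups did not overlap for either gene, and the mt-nd4l call was lost without WT APAP 12 h replicate 1 or 3 or WT DMSO 12 h replicate 1 or 2. The gene mt-nd4l overlaps MT-ND4, and mt-atp8 overlaps MT-ATP6, so reads over the shared stretch were not assigned to either. Medians of the 13 genes under APAP were 0.43 in KO and 0.40 in WT at 12 h, and 0.20 and 0.11 at 24 h. Those of all tested genes were -0.30 and -0.07 at 12 h, and -0.004 and 0.02 at 24 h. On unscaled counts at 12 h these genes took 5.19% to 6.77% of KO APAP libraries, against 5.35% to 7.40% of KO DMSO libraries. In WT at 12 h they took 4.98% to 5.83% with APAP, against 3.69% to 7.03% with DMSO. These ranges overlapped, and the part of the scaling in the medians at 12 h was not tested.

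Between times, MT-ND6 (1.38) and MT-CO1 (0.94) were called higher at 24 h than at 12 h in KO DMSO livers, but neither call was kept without KO DMSO 24 h replicate 3 or 4 or KO DMSO 12 h replicate 1, 2 or 3. The MT-ND6 call was also lost without KO DMSO 24 h replicate 2, and that of MT-CO1 with relative log expression scaling and with DESeq2. In WT DMSO livers all 13 were positive, with a median of 0.52, and none was called. Their mean log2(CPM + 2) was 9.59 in WT DMSO 12 h replicate 1, against 10.47 to 11.29 in the other replicates. Their unscaled share of counts was 4.93% to 5.81% at 24 h, within the 3.69% to 7.03% at 12 h. The part of the scaling and of that replicate in the median was not tested. MT-ND6 lies on the other strand of mitochondrial DNA than the rest, and the strand setting of the counting is not given in the sources used here.

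**Figure D5:**
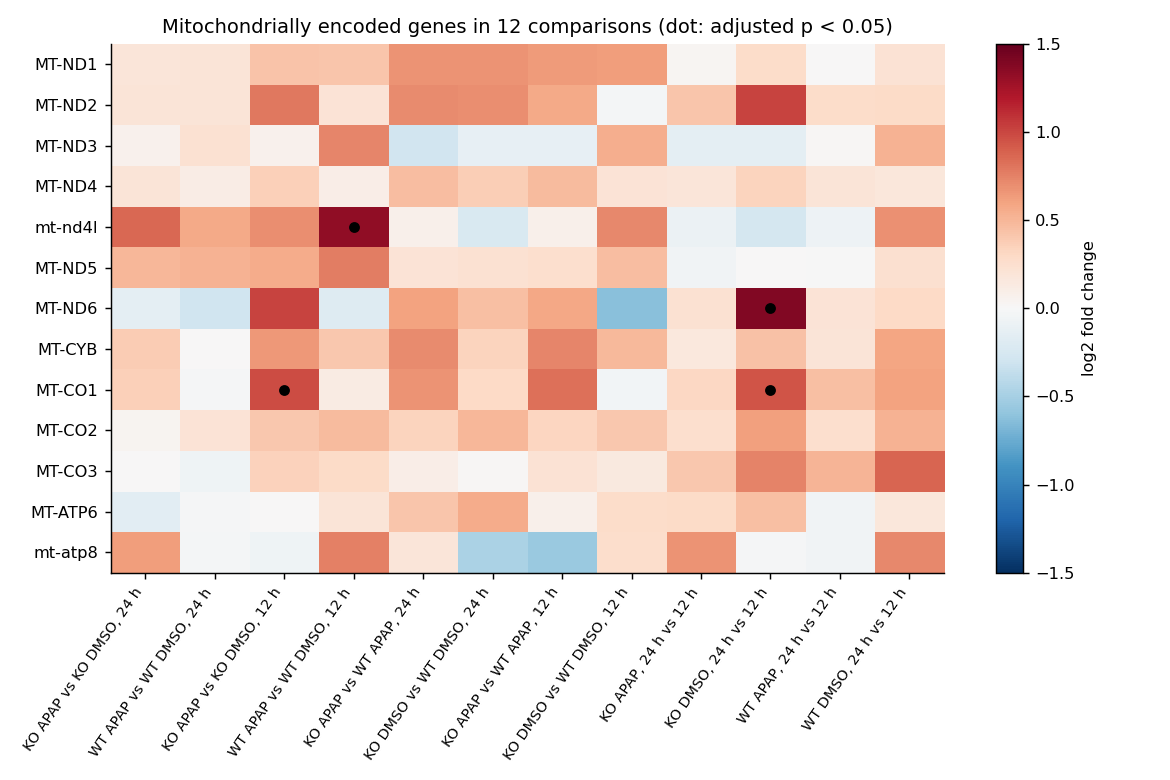
Heat map of log2 fold changes of the 13 mitochondrially encoded genes (rows) in 12 comparisons (columns), with a dot where a gene was called. The dots mark MT-CO1 in KO APAP against KO DMSO at 12 h, mt-nd4l in WT APAP against WT DMSO at 12 h, and MT-ND6 and MT-CO1 in KO DMSO at 24 h against 12 h.

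Other mitochondrial genes were read from lists. Over the 4 pairs, KO over WT, 14 of 74 tested genes of the mitochondrial ribosome were higher and none lower (median 0.45), and 6 of 28 genes of protein import were higher and none lower (median 0.52). Assembly factors of complexes III, IV and V had 6 of 35 higher and none lower (median 0.49), and enzymes of ubiquinone synthesis 1 of 11 higher (median 0.52). The TCA cycle had 5 of 21 higher and 2 lower (median 0.35), carriers of ADP, ATP and phosphate with the uncoupling proteins 3 of 8 higher (median 0.21), other enzymes that pass electrons to ubiquinone 2 of 5 higher and 1 lower (median 0.20), and glycolysis 3 of 22 higher and 1 lower (median 0.13). For comparison, 4.36% of all tested genes were higher and 4.76% lower, with a median of -0.13, and the respiratory chain and ATP synthase genes had 58 of 102 higher and 5 lower.

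None of the 12 tested regulators of mitochondrial biogenesis was called in any of the 17 comparisons by edgeR, with 7 of 204 tests at an unadjusted p under 0.05. Over the 4 pairs, 4.36% of all tested genes were called higher and 4.76% lower, so no call among 12 genes is near the background. Their median, KO over WT, was 0.03. The smallest adjusted p was 0.0875, for tfb2m, a mitochondrial transcription factor, at 0.59 ± 0.22. NRF1, a factor that binds many respiratory chain promoters in mammals, differed by -0.64 ± 0.40 and averaged 2.42 to 7.08 CPM over the KO groups and 2.62 to 11.6 CPM over the WT groups. TFAM, which packages and transcribes mitochondrial DNA, differed by -0.03 ± 0.26 and averaged 17.6 to 29.8 CPM over the KO groups and 17.9 to 29.1 CPM over the WT groups. The coactivator PPARGC1A was not tested for lack of counts, and its relative ppargc1b differed by 0.37 ± 0.36.

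Under APAP, genes of these lists changed as well. Of the assembly factors, higd1a, a hypoxia-induced protein that associates with complex IV, rose at 12 h by 2.58 ± 0.40 in KO (edgeR adjusted p = 3.84e-05) and by 2.59 ± 0.40 in WT (edgeR adjusted p = 4.94e-05). It had 125, 82.5, 102 and 124 CPM in KO APAP, against 25.9, 20.8, 6.59 and 19.0 CPM in KO DMSO at 12 h, without overlap. Without the library that detected 4129 genes the rise of higd1a in KO was 2.67 (edgeR adjusted p = 1.0e-05), and without the 3 libraries that detected few genes it was 2.39 in KO and 3.13 in WT, both called. Of the carriers, UCP1, whose mammalian form lets protons back across the membrane without making ATP, rose at 12 h by 2.82 ± 0.37 in KO and by 2.31 ± 0.36 in WT (edgeR adjusted p = 1.36e-06 and 4.77e-05). It had 3150, 3581, 5425 and 4569 CPM in KO APAP, against 458, 415, 785 and 705 CPM in KO DMSO. WT livers at 12 h had 2687, 1501, 2814 and 3515 CPM with APAP, against 322, 822, 355 and 627 CPM with DMSO. The rise of UCP1 in KO was 2.87 without the library that detected 4129 genes, and without the 3 libraries it was 3.03 in KO and 2.59 in WT, all called. SQOR, which passes electrons from sulfide to ubiquinone, rose in WT by 3.30 ± 0.62 at 12 h (edgeR adjusted p = 0.000782) and by 2.16 ± 0.59 at 24 h (edgeR adjusted p = 0.0287). In KO at 24 h SQOR had 20.5, 13.8, 13.3 and 13.9 CPM with APAP, against 8.24, 9.98, 14.4 and 16.7 CPM with DMSO, and the groups overlapped. In KO at 12 h it had 18.5, 0, 19.9 and 13.1 CPM with APAP, against 8.79, 12.6, 9.62 and 6.61 CPM with DMSO, a difference of 0.45 ± 0.57 that was not called, nor was it at 0.84 ± 0.39 without the library at 0, which detected 4129 genes. The response of SQOR in KO minus that in WT was not called either: it was -2.84 ± 0.82 at 12 h (edgeR adjusted p = 0.273), or -2.45 ± 0.54 without that library (edgeR adjusted p = 0.0580), and -1.84 ± 0.81 at 24 h (edgeR adjusted p = 1).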

How the data were processed

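The authors deposited raw counts: 1 table of integer read counts with 32519 Ensembl genes in rows and 1 column per library. Per the submitters' processing notes, bcl2fastq, Trim Galore, HISAT2 and HTSeq were used with the build GRCz11; versions, annotation release and strand setting are not given in the sources used here. Per the labels' protocols, total RNA came from 20 pooled livers per library. HTSeq leaves out reads that fit several places or genes, so values of near-identical copies are uncertain: ambiguous reads made up 2.06 to 3.17% and reads that were not unique 1.54 to 3.23%. Those lines, and the others that name no gene, stayed out of library sizes and tests. Total counts of 3971569 to 6298523 per library limit the precision for genes of a few CPM.

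Members were found by gene name. Genes were filtered with filterByExpr and libraries scaled with TMM. In edgeR 4.0.16 (R 4.3.3) a model with a mean for each group took in all 32 libraries (residual degrees of freedom 24, prior 16.7, common biological coefficient of variation 0.743). Two-sided quasi-likelihood F-tests gave 17 comparisons, adjusted over 11384 genes, with calls at an adjusted p under 0.05. The prior count for fold changes was 0.125, and SE was taken as |log2 fold change| divided by the root of F. CPM uses the TMM-scaled library size. No pair of libraries of a group were copies (lowest chi-square per degree of freedom 15.5). The script was tested on simulated data.

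The members and lists were chosen with earlier results of these data known. The comparison over the 4 pairs, the 24 h minus 12 h responses and limma voom (limma 3.58.1) were chosen after the data were examined, as were the fits of named list genes without the libraries that detected few genes. Named were up to 8 called members per direction with the smallest p for APAP against DMSO, up to 4 for the other comparisons, core subunits and tissue forms fixed by name, all mitochondrially encoded genes, the regulators, up to 2 called genes per other mitochondrial list, and the 5 genes most like cox7a1; ATP5PF, NDUFB10, sdhaf1, atp5meb and others named for not overlapping, or as the copy of a named gene, were chosen after their values were seen. The alternatives were DESeq2 1.42.0, relative log expression scaling, no filter, only the compared groups, the replicate number as a block, leaving out the 3 libraries that detected few genes, and each library left out in turn.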

Additional observations from a re-analysis of the deposited data

Results flagged for a closer look

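The fall of cox7a1 with APAP differed between times by a test of the difference itself: the response at 24 h minus that at 12 h was -3.0 in KO and -2.63 in WT (edgeR adjusted p = 0.000144 and 0.00127).

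Groups of 4 libraries were read for the 28 members called in any single comparison and for the means of the nuclear and the mitochondrially encoded sets, 240 groups in all. In 7 of them, each for a called member, 1 library lay outside the other 3 by Dixon's test at its 95% critical value; chance gives about 1 in 20. ATP5F1B had 3798 CPM in WT APAP 12 h replicate 4, against 2460 to 2625 CPM in the others (ratio 0.877). ATP5F1D had 1197 CPM in KO DMSO 12 h replicate 3, against 685 to 737 CPM (0.898), in a library that detected few genes. The inhibitor gene atp5if1b had 374 CPM in KO DMSO 12 h replicate 1, against 178 to 208 CPM (0.850). In KO DMSO replicate 2, ndufa4b had 20.0 CPM at 24 h, against 1.36 to 2.60 CPM (0.933), and 155 CPM at 12 h, against 37.1 to 48.8 CPM (0.901). The gene ndufv3 had 195 CPM in WT DMSO 24 h replicate 4, against 111 to 117 CPM (0.925). UQCRC2 had 250 CPM in KO APAP 12 h replicate 2, the library with 4129 detected genes, against 107 to 121 CPM (0.897).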

How the results depend on the processing

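The genotype difference over the 4 pairs kept its count of calls within 1.5 times under every setting: 45 to 67 higher and 5 lower. There were 117 calls of a member in a comparison. Of these, 49 lay outside the mean over the 4 pairs, and the rest were calls in that mean, which was chosen after the data were examined. Of the 117, DESeq2 kept 111, relative log expression scaling 98, limma voom 114, no filter 92, only the compared groups 100, the replicate block 112 and leaving out the 3 libraries that detected few genes 112. No called fold change turned sign. Medians of the nuclear genes near 0 did: with relative log expression scaling that of KO APAP against KO DMSO at 12 h was -0.10, of WT APAP against WT DMSO at 12 h -0.02, of KO DMSO between times -0.13, of WT DMSO between times -0.11 and of the APAP response in KO minus WT at 12 h -0.09, each above 0 in the report's scaling. Counts in single comparisons were less stable, and the cause was not tested.

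Called nuclear members, higher and lower together, moved from their values in the report as follows. The shares of all tested genes called under each setting are not given here, so these counts stand without a background. With DESeq2 they numbered 6 in KO APAP against KO DMSO at 24 h and 4 at 12 h, 7 in KO DMSO against WT DMSO at 12 h, 5 in KO APAP at 24 h against 12 h, 12 in KO DMSO and 3 in WT DMSO, and 2 in the 24 h minus 12 h response of KO. With limma voom they were 7 (24 h) and 11 (12 h) in KO DMSO against WT DMSO, 5 in KO APAP against KO DMSO at 12 h, 16 in KO APAP against WT APAP at 12 h, and between times 14 in KO DMSO, 0 in WT APAP and 5 in WT DMSO. With relative log expression scaling, WT DMSO between times had 1. With no filter there were 5 in KO APAP against KO DMSO at 24 h, 0 in WT APAP against WT DMSO at 12 h, 1 in WT DMSO between times and 2 in the KO response over time. With only the compared groups there were 14 in KO APAP against KO DMSO at 24 h and 1 at 12 h, 36 in KO DMSO against WT DMSO at 24 h, 0 in WT APAP against WT DMSO at 12 h, 1 in KO APAP against WT APAP at 12 h, and between times 0 in KO APAP, 14 in KO DMSO and 1 in WT DMSO. Without the 3 libraries there were 7 in KO APAP against KO DMSO and 5 in WT APAP against WT DMSO at 24 h, 21 in KO APAP against WT APAP and 15 in KO DMSO against WT DMSO at 24 h, 5 in KO DMSO against WT DMSO at 12 h, and between times 14 in KO DMSO and 1 in WT DMSO.

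With the replicate number as a block, KO DMSO against WT DMSO at 24 h had 7 calls, against 4 without it, and the other counts stayed within 1.5 times. The numbers did not pair the libraries: deviations of same-numbered libraries had a mean correlation of 0.00611 (-0.185 to 0.146).

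When each library was left out in turn, calls ranged from 2 to 4 in KO APAP against KO DMSO and 2 to 3 in WT APAP against WT DMSO at 24 h, from 2 to 3 and 0 to 1 at 12 h, from 2 to 9 in KO APAP against WT APAP and 0 to 4 in KO DMSO against WT DMSO at 24 h, and from 5 to 10 and 1 to 2 at 12 h. Between times they ranged from 1 to 1 in KO APAP, 1 to 7 in KO DMSO, 0 to 1 in WT APAP and 0 to 1 in WT DMSO, and for the 24 h minus 12 h response from 1 to 2 in KO and 1 to 1 in WT. Over the 4 pairs they ranged from 55 to 73.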

Other observations

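The share of each library's unscaled counts taken by the 110 nuclear genes was 3.88% in KO APAP 24 h, 3.94% in KO DMSO 24 h, 4.71% in KO APAP 12 h and 5.40% in KO DMSO 12 h, against 2.80%, 2.77%, 3.53% and 4.02% in the matching WT groups. On this scale APAP livers at 12 h stood below DMSO livers in both genotypes, while on the scaled CPM their sums stood above: 50608 ± 2095 CPM in KO APAP, against 42555 ± 4494 CPM in KO DMSO, and 34046 ± 4160 CPM in WT APAP, against 29566 ± 6159 CPM in WT DMSO (SD, n = 4 each). The direction of the summed APAP change at 12 h therefore depends on the scaling. So does that of the time change in DMSO livers, whose unscaled share was lower at 24 h than at 12 h in both genotypes. Their scaled mean log2(CPM + 2) over the tested nuclear genes was 7.41 at 24 h, against 7.31 at 12 h, in KO. In WT it was 6.95, against 6.87. The direction of the genotype difference was the same on both scales.

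SQOR differed between genotypes in the other direction from most members: over the 4 pairs it was lower in KO by -0.996 (edgeR adjusted p = 0.0205), and by -0.874 without KO APAP 12 h replicate 2 (edgeR adjusted p = 0.00100). At 12 h with APAP it had 18.5, 0, 19.9 and 13.1 CPM in KO, against 72.8, 38.7, 54 and 106 CPM in WT, without overlap, the 0 being the library with 4129 detected genes. That difference was -2.39 (edgeR adjusted p = 0.0220), and -1.97 without this library (edgeR adjusted p = 0.00554). The import chaperone HSPA9 had 177, 141, 164 and 147 CPM in KO APAP at 24 h, against 43.6, 29, 52.5 and 30.6 CPM in WT APAP, and was higher in KO by 1.27 over the 4 pairs.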
